A study of Mus musculus with 16 samples.

Results

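The change of the trigeminal ganglion between the embryo and the young animal was followed in mice that lack Nogo-A. The 4 ganglia collected on day 25 after birth (P25) were compared with the 4 collected on day 14 of embryonic life (E14), across all genes, in knockout (KO) animals. These 8 libraries were chosen by their sample titles, from 16 in the whole series. The other 8 come from wild-type (WT) ganglia of the same stages, 4 per stage, and are used here only beside the KO values. Every library was made from polyadenylated RNA of 1 whole ganglion, with no agent applied to the animals. The labels describe the KO groups as Nogo-A KO and the others as wild-type, and give neither the strain nor the allele, so it is not known here which part of the gene is deleted. They state 4 animals per group. E14 KO libraries 1 and 3 are named with one number plus R or L, and so are E14 WT libraries 2 and 4, so each pair may be the ganglia of 1 animal. This touches the KO and WT comparisons, the spread that the fit shares between groups, and the test between KO and WT. The p-values therefore reflect variation among ganglia, which may be less than that among animals.

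Sensory neurons that serve the face, the mouth and the meninges have their cell bodies in the trigeminal ganglion. On E14 these neurons have left the cell cycle and are extending axons, while glial precursors of the neural crest still divide around them. After birth the neurons acquire their mature channels and transmitters, Schwann cells wrap the larger axons in myelin, and satellite glia enclose each cell body. Nogo-A is the longest product of the Rtn4 gene, a membrane protein known for restraining the growth of axons, and its shorter relatives Nogo-B and Nogo-C come from the same gene.

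Rtn4 counts add all products of the gene. The level was 291, 405, 260.1 and 236 CPM (read counts scaled to a common library size) in the 4 E14 KO libraries, and 364, 379.9, 345 and 384 CPM in the 4 P25 KO libraries. The stages overlapped, and the log2 fold change of 0.30 (SE 0.26) did not pass the test (adjusted p = 0.33, edgeR). Against WT of the same stage the log2 difference of Rtn4 was -0.27 at E14 (adjusted p = 0.943) and -0.41 at P25 (adjusted p = 1). Single products of the gene were not separated, so the level of Nogo-A itself was not tested.

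The 8 KO libraries held 15532373 to 24832799 counts over 25719 gene identifiers, of which 15109 passed the filter on low counts. The first principal component of log2 CPM carried 83.3% of the variance and separated the stages. The second carried 4.95% and set E14 KO library 1 apart from the other 3 of its group. Deviations of single libraries from their group mean that followed the GC content and length of the transcripts took 0.448 to 22% of the variance of these deviations in KO libraries. In WT libraries the share was 3.73 to 52.3%, the highest in E14 WT library 2. The WT libraries enter the shared spread, the WT values and the test between KO and WT, and no adjustment was made for this.

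Genes with an adjusted p under 0.05 by edgeR's quasi-likelihood test, Benjamini-Hochberg adjusted over all genes tested, are said to have risen or fallen from E14 to P25. Of the 15109 genes tested, 9032 changed (59.8%): 4622 rose (30.6%) and 4410 fell (29.2%). The median log2 fold change (P25 minus E14) over all genes tested was 0.01. These shares are the background against which the count of each gene group is to be read. A gene made at 1 stage alone passes the filter through that stage, so counts within a group describe its tested members only. A stricter test asked whether the difference exceeded 2-fold. It was passed by 3682 genes (24.4%), of which 2250 were higher (14.9%) and 1432 lower (9.48%) at P25. A fitted change over 16-fold was called for 574 genes that rose and for 155 that fell. In bulk RNA, fewer cells of a type and less RNA per cell cannot be told apart.

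**Figure D1:**
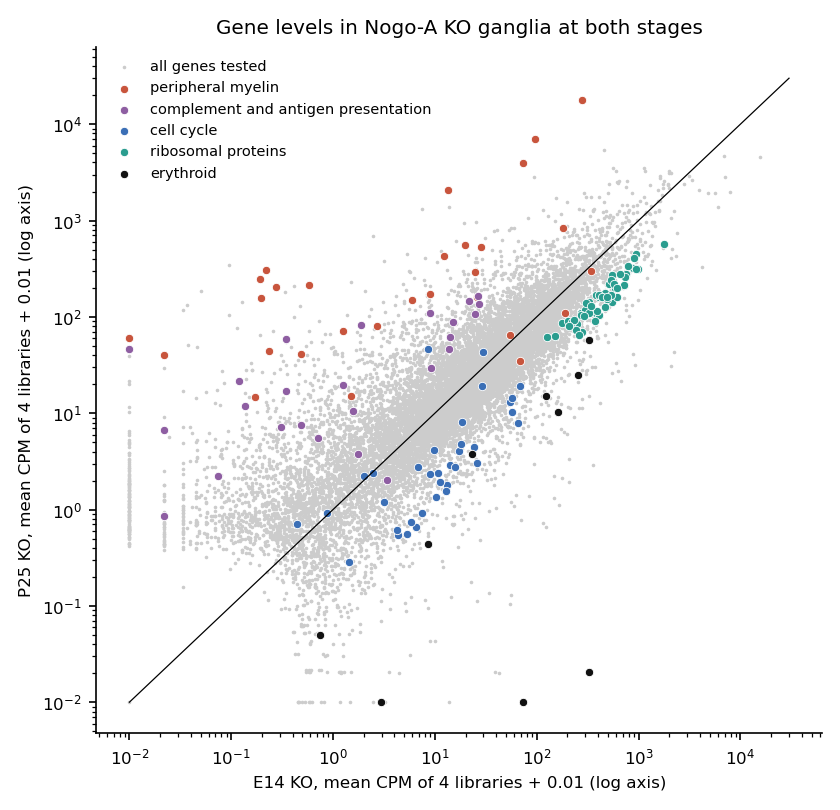
Mean level of each of 15109 genes in 4 E14 KO libraries (horizontal) and 4 P25 KO libraries (vertical), both in CPM with 0.01 added, on log axes. Coloured points are members of 5 gene groups and the line marks equal levels. Myelin genes such as Mbp lie far above the line, all ribosomal protein genes lie below it, and the embryonic globin genes Hbb-y and Hba-x lie on the lower edge.

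Tubulin genes took large shares of the counts at E14 and myelin genes at P25. At E14 the largest share belonged to Tuba1a, an alpha-tubulin of growing axons, with 15559 ± 2709 CPM (SD, n = 4), followed by the tubulin Tubb5 and the elongation factor Eef2. At P25 the 10 genes with most counts included Mbp, a protein that compacts myelin, with 6989 ± 1199.8 CPM, and Apoe, a lipid carrier of glia, with 5377 ± 929 CPM. Such shares also depend on transcript length.

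The largest increases at a mean of at least 10 CPM included genes with no count at E14. Mrgprd, a receptor of non-peptidergic nociceptors, was at 0, 0, 0 and 0 CPM in the E14 KO libraries and at 60.9, 64.6, 55.6 and 67.8 CPM in the P25 KO libraries, at least 1570-fold higher with 3 counts over the E14 group as floor. C4b, a complement protein, was likewise at 0 in all E14 libraries and at 45.5, 47.9, 53.6 and 37.9 CPM at P25, at least 1160-fold higher. C4b has a near-identical neighbour, so its reads may be shared. Myoc and Angptl7, secreted proteins, were also without counts at E14 and reached 20.1 and 21.4 CPM. Ddn, a dendritic protein, went from 0.0265 to 134 CPM, Hapln4, a link protein of perineuronal matrix, from 0.0408 to 186 CPM, and Tmem233, a membrane protein of sensory neurons, from 0.0847 to 346 CPM. Chrna6, a nicotinic receptor subunit, went from 0.0117 to 29.3 CPM. At E14 Ddn had 2 counts in all, Hapln4 had 3 and Chrna6 had 1. Counting intervals of their folds were wide, 1380 to 41200 for Ddn, 1600 to 22700 for Hapln4 and 397 to 87500 for Chrna6. All P25 libraries stood above all E14 libraries for each of these genes, as the rule that chose them required.

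The largest decreases included the embryonic globins Hbb-y and Hba-x, given below with the erythroid genes, and several genes known from developing neurons. Ppp1r17 went from 43.1 to 0.00992 CPM, Trh, the thyrotropin-releasing hormone precursor, from 38.6 to 0.0108 CPM, and Tunar from 55 to 0.0934 CPM. Ppp1r17 and Trh each had 1 count in all at P25, with counting intervals of the fold of 710 to 156000 and 641 to 141000. Nhlh1, a factor of newly born neurons, was at 61.1, 55.6, 61.9 and 43.9 CPM at E14 and at 0, 0.345, 0.0913 and 0.0397 CPM at P25. Gpc2, a glypican of developing neurons, went from 125 to 0.645 CPM, Col22a1, a collagen, from 166 to 1.09 CPM, Mex3a, an RNA-binding protein of progenitors, from 147 to 1.29 CPM, and Plppr1, a protein of neurite outgrowth, from 70.6 to 0.765 CPM.

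**Figure D2:**
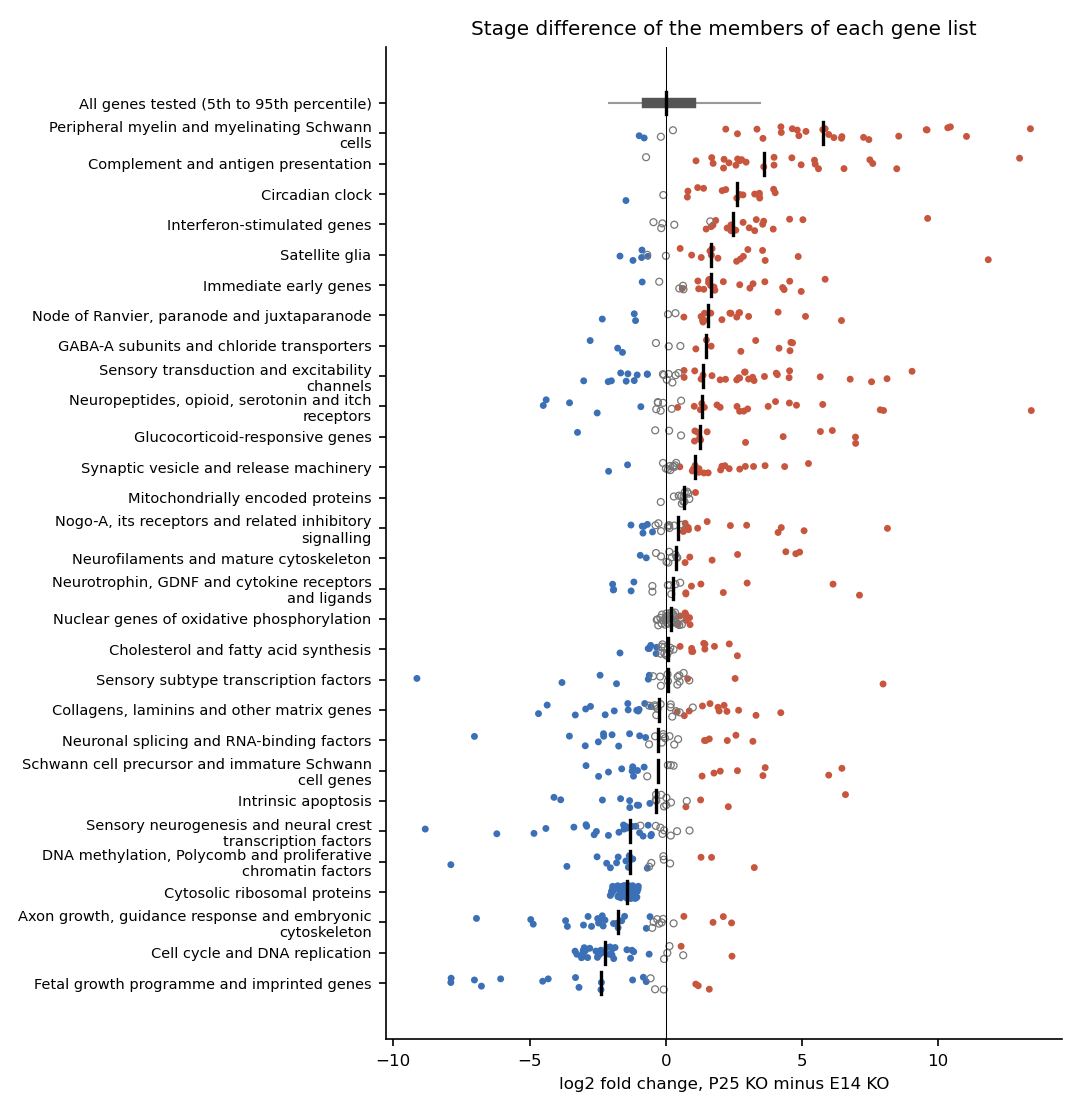
Log2 fold change of each tested member of 29 functional gene groups, one point per gene, P25 KO minus E14 KO. Red and blue points rose and fell (adjusted p under 0.05), open points did not pass the test, vertical bars are medians, and the top line spans the 5th to 95th percentile of all genes (-2.07 to 3.47) with its box from the 25th to the 75th (-0.70 to 0.91). Peripheral myelin lies farthest to the right, with a median of 5.76, and the fetal growth programme farthest to the left, with a median of -2.37.

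Transcription factors of sensory neurogenesis fell or did not pass the test, and none rose. Of 30 tested members 22 fell, with a median log2 fold change of -1.32. Sox11, which keeps newly born neurons in an immature state, was at 119.6, 223, 135 and 78 CPM at E14 and at 5.85, 5.52, 3.97 and 4.05 CPM at P25, with log2 fold change -4.84 (SE 0.34, adjusted p = 2.88e-10). Sox4 fell from 112 to 15 CPM, Nhlh2 from 19.6 to 0.92 CPM and Ebf2 from 64.4 to 6.21 CPM. Neurog1, the proneural factor of trigeminal neurons, was low at both stages and fell from 1.8 to 0.541 CPM. Isl1, which marks sensory identity throughout life, fell from 159.7 to 54.5 CPM. Its partner Pou4f1 was at 199.6, 231, 179 and 141 CPM at E14 and at 186, 153, 165 and 151 CPM at P25. Those Pou4f1 values overlapped and their difference did not pass the test (log2 -0.20, adjusted p = 0.304).

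Among 20 tested factors that separate classes of sensory neurons, 3 rose, 6 fell and 11 did not pass the test. Of all genes tested 30.6% rose and 29.2% fell. Hopx, a homeodomain protein without DNA binding, rose from 0.402 to 99.3 CPM, and Etv1, a factor of proprioceptors and other mechanosensory neurons, from 4.2 to 24.7 CPM. Mafa rose from 24.7 to 43 CPM. Bcl11a fell from 53.1 to 3.78 CPM and Bcl11b from 30.4 to 8.67 CPM. Neurod6, also a marker of central neurons, was without counts at P25 and stood at 3.21 CPM at E14.

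Genes of axon growth fell as a group. Of 32 tested members 21 fell and 4 rose, with a median of -1.77. Dcx, a microtubule-binding protein of migrating and growing neurons, was at 285, 563, 330.0 and 258 CPM at E14 and at 4.78, 2.33, 2.56 and 1.94 CPM at P25. E14 KO library 2 was the highest, and no P25 library came near the E14 range (log2 -6.95, SE 0.46, adjusted p = 1.07e-10). Tubb2b, a beta-tubulin of growing axons, was at 4051, 3207, 4648 and 4731 CPM at E14 and at 318, 282, 406 and 295 CPM at P25 (log2 -3.68, SE 0.19, adjusted p = 4.66e-12). Gap43, the growth cone protein, fell from 479.9 to 86.8 CPM, and the membrane-linked Marcksl1 from 912 to 31.3 CPM. The collapsin response mediator Dpysl3 fell from 2322 to 428 CPM. The adhesion protein Cntn2 fell from 2058 to 409 CPM, and the semaphorin receptor Nrp1 from 196 to 34.7 CPM. Against the direction of the group, Map1b, a microtubule protein of axons, rose from 766 to 2550.1 CPM, the adhesion protein Chl1 from 8.36 to 44.7 CPM, and Atf3, a factor induced by axon injury, from 1.99 to 8.59 CPM.

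Genes of the mature cytoskeleton included members that rose far and members that did not pass the test. Of 18 tested 7 rose and 2 fell, beside 30.6% and 29.2% of all genes tested. Nefh, the heavy neurofilament subunit of large axons, was at 86.6, 119, 88.7 and 81.9 CPM at E14 and at 3239, 2558, 2663 and 2884 CPM at P25, with log2 fold change 4.91 (SE 0.17, adjusted p = 2.68e-14). The light subunit Nefl rose from 1983 to 3244 CPM. Tuba4a, an alpha-tubulin of mature neurons, rose from 30.8 to 654 CPM, and Map1a, the microtubule protein of mature neurites, from 559.7 to 3479 CPM. Prph, the intermediate filament of small sensory neurons, fell from 3932 to 2056 CPM. The motor gene Kif5a was at 1320.2 and 1409 CPM, a difference that did not pass the test (adjusted p = 0.62).

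Genes of the intrinsic death pathway changed in both directions. Of 22 tested members 9 fell and 4 rose, beside 29.2% and 30.6% of all genes tested, and the median was -0.35. Hrk, an initiator that responds to loss of trophic support, was at 33.4, 41.8, 32.2 and 35.2 CPM at E14 and at 2.55, 1.34, 1.37 and 2.98 CPM at P25 (log2 -4.10, SE 0.30, adjusted p = 5.55e-10). All P25 libraries stood below the lowest E14 library. Bbc3, an initiator that responds to p53, fell from 26.4 to 5.27 CPM. Apaf1, the apoptosome scaffold, fell from 16.1 to 5.1 CPM, and Bax, the pore-forming effector, from 86.2 to 34.3 CPM. The protective Bcl2l2 and Bcl2 rose, from 27.7 to 136 CPM and from 12.5 to 30.4 CPM, but so did the pro-apoptotic Pmaip1, which had no counts at E14 and 0.543 CPM at P25.

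Channels of sensory transduction and excitability rose more often than they fell. Of 43 tested members 26 rose, 10 fell and 7 did not pass the test, with a median of 1.37. The cold receptor Trpm8 was at 0.126, 0.42, 0.291 and 0.476 CPM at E14 and at 182, 197, 167 and 183 CPM at P25, with log2 fold change 9.04 (SE 0.48, adjusted p = 4.78e-12). The irritant receptor Trpa1 rose from 0.31 to 35 CPM. The heat and capsaicin receptor Trpv1 was at 99.98, 86.3, 93.1 and 116 CPM at E14 and at 92.6, 98.4, 116 and 99.88 CPM at P25. Those Trpv1 ranges overlapped almost entirely, and the log2 difference of 0.04 (SE 0.17) did not pass the test (adjusted p = 0.858). The touch channel Piezo2 was at 175 and 225 CPM and did not pass the test (adjusted p = 0.255), though it did without E14 KO library 2 (log2 0.72, adjusted p = 0.0201). Piezo1 fell from 24.1 to 9.19 CPM.

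Sodium channel subunits changed in both directions. Scn3a, the embryonic alpha subunit, fell from 18.7 to 2.3 CPM, and Scn8a, the alpha subunit of mature nodes, rose from 23.9 to 197 CPM. Among the tetrodotoxin-resistant channels of nociceptors, Scn11a rose from 13.1 to 306 CPM and Scn10a from 395 to 1020.3 CPM. Scn9a, the other nociceptor channel, was at 104 and 144 CPM (adjusted p = 0.353), though it passed in an edgeR fit to the KO libraries alone (adjusted p = 0.0289). Of the beta subunits, Scn4b was at 1.96, 3.83, 1.28 and 2.76 CPM at E14 and at 654, 742, 625 and 759 CPM at P25 (log2 8.12, SE 0.44, adjusted p = 6.69e-12).

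Potassium and pacemaker channels were among the members that rose most. Kcnk18, the TRESK leak channel, rose from 0.129 to 28 CPM. The silent subunits Kcns1 and Kcns3 rose from 3.86 to 88.6 CPM and from 4.97 to 84.6 CPM. The pacemaker channel Hcn2 rose from 25.2 to 310.2 CPM, and Kcnq3, a subunit of the M current, from 4.72 to 35.7 CPM. Members that fell included the ATP receptor P2rx3, from 509 to 127 CPM, the T-type calcium channel Cacna1h, from 429.8 to 99.4 CPM, and the calcium channel subunit Cacna2d2, from 149 to 47.2 CPM.

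**Figure D3:**
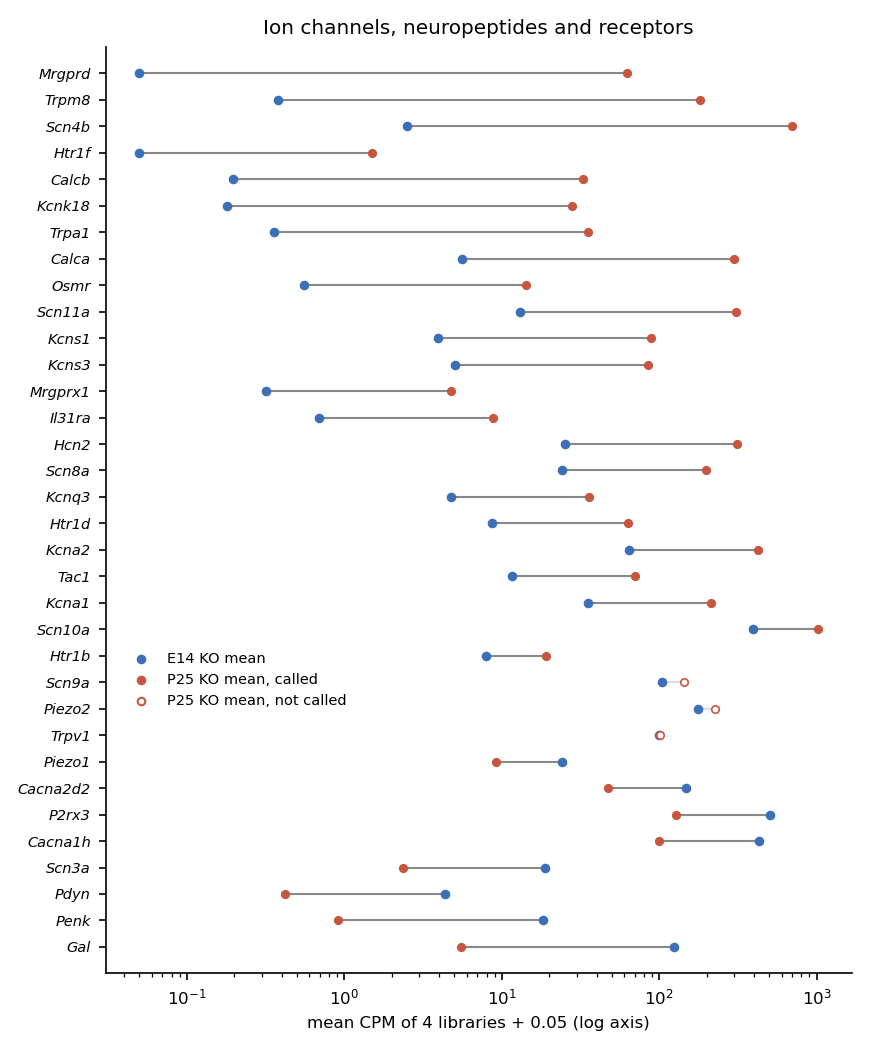
Mean CPM (with 0.05 added, log axis) of the 34 members of the ion channel list and the neuropeptide and receptor list that the text names, in 4 E14 KO libraries (blue) and 4 P25 KO libraries (red, open where the difference did not pass the test), ordered by log2 fold change. Chrna6 is in neither list and is not drawn. Among the genes drawn Mrgprd and Trpm8 head the order and Gal ends it, while Trpv1 has nearly coinciding points.

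Neuropeptides moved in both directions. Calca, the precursor of the vasodilator CGRP, was at 5.18, 3.5, 7.34 and 6 CPM at E14 and at 232, 329.7, 269 and 361 CPM at P25, with log2 fold change 5.76 (SE 0.37, adjusted p = 6.9e-11). Its relative Calcb rose from 0.146 to 32.9 CPM, and Tac1, the substance P precursor, from 11.5 to 70.6 CPM. Gal, the galanin precursor, went the other way, from 142, 97.6, 113 and 140.1 CPM at E14 to 3.58, 6.85, 5.16 and 6.23 CPM at P25 (log2 -4.50, SE 0.25, adjusted p = 1.02e-11). The opioid precursors Penk and Pdyn fell from 18.1 to 0.86 CPM and from 4.31 to 0.367 CPM. Of the whole list of 31 tested peptides and receptors, 19 rose and 5 fell. The itch receptors Il31ra, Osmr and Mrgprx1 rose from 0.645 to 8.74 CPM, from 0.503 to 14.2 CPM and from 0.268 to 4.71 CPM. Among targets of triptans, Htr1d rose from 8.63 to 63.1 CPM, Htr1b from 7.88 to 19 CPM, and Htr1f had no counts at E14 and 1.45 CPM at P25.

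Receptors for survival factors moved apart. Ntrk2 and Ntrk3, the BDNF and NT-3 receptors, rose from 105 to 202 CPM and from 56.8 to 139 CPM. Ret, the signalling receptor of the GDNF family, rose from 722 to 1201 CPM. The artemin co-receptor Gfra3 was at 222, 238, 251 and 289 CPM at E14 and at 65.4, 65.6, 69 and 65.7 CPM at P25 (log2 -1.91, SE 0.17, adjusted p = 6.11e-09), a fall with no overlap between the stages. Ngfr, the p75 receptor that Nogo receptors also use, was at 969 and 1021 CPM (adjusted p = 0.705). Cntf, a cytokine that Schwann cells store, rose from 0.295 to 39.8 CPM. Of 20 tested members 8 rose and 5 fell, beside 30.6% and 29.2% of all genes tested.

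Genes of transmitter release rose in most cases. Of 30 tested members 19 rose, 2 fell and 9 did not pass the test. Vamp1, the vesicle SNARE of fast-conducting neurons, was at 20.9, 25.8, 22.3 and 32.4 CPM at E14 and at 863, 967, 1035 and 967 CPM at P25, with log2 fold change 5.24 (SE 0.21, adjusted p = 1.32e-13). Snap25 rose from 66.1 to 617 CPM, Cplx1 from 294 to 1931 CPM, and the glutamate transporters Slc17a7 and Slc17a6 from 21.1 to 434 CPM and from 55.9 to 115 CPM. The calcium sensor Syt2 rose from 141 to 571 CPM, whereas Stx1a and Sv2a fell, from 179.6 to 42 CPM and from 230.5 to 87.2 CPM.

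Chloride transporters and GABA-A receptor subunits set how a neuron responds to the transmitter GABA. The importer Slc12a2, which keeps GABA depolarising in sensory neurons, rose from 41.9 to 90.1 CPM, and the exporter Slc12a5 fell from 2.77 to 0.921 CPM. Gabra2 rose from 2.18 to 14.8 CPM, while Gabra3 fell from 22.1 to 6.5 CPM. Of 15 tested members 9 rose and 3 fell. Among 8 pairs of an embryonic and a mature relative chosen from textbook knowledge of other neurons or blood, 2 showed a fall of the first with a rise of the second: Scn3a with Scn8a, and Ezh2 with Ezh1. Slc12a2 and Slc12a5 showed the opposite, and both globin pairs fell together. In the other 3 pairs 1 member did not pass the test.

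Myelin genes had the largest median of the 29 functional groups. Of 29 tested members 25 rose and 2 fell, with a median log2 fold change of 5.76. Mbp was at 93.7, 80.7, 99.5 and 114 CPM at E14 and at 6218, 6719, 8756 and 6262 CPM at P25 (log2 6.17, SE 0.21, adjusted p = 1.6e-14). P25 KO library 3 was the highest, and all P25 libraries stood far above E14. Pmp22, whose dosage underlies inherited neuropathies, rose from 72.6 to 3942 CPM, and Prx, the periaxin of myelinating Schwann cells, from 13.5 to 2070.5 CPM. Cldn19, a tight junction protein of the myelin sheath, rose from 0.209 to 303 CPM, and Pllp, a myelin proteolipid, from 0.182 to 249 CPM.

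The regulators of myelination differed among themselves. Egr2, the factor that switches Schwann cells to myelination, was at 0.948, 0.887, 2.1 and 1 CPM at E14 and at 73.7, 71.5, 98.6 and 39.2 CPM at P25, and Pou3f1, which acts before it, rose from 0.163 to 14.6 CPM. Sox10, which all neural crest glia need, was at 350.2, 313, 421 and 285 CPM at E14 and at 406, 271, 372 and 158 CPM at P25. The Sox10 ranges overlapped and the difference did not pass the test (log2 -0.18, adjusted p = 0.587). The members that fell were Erbb3, the neuregulin receptor, from 190.0 to 109.7 CPM, and Adgrg6, the receptor that starts myelination, from 67.8 to 34.5 CPM.

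Markers of central glia moved with the myelin genes, and their part in these results was not tested. Mobp, an oligodendrocyte myelin protein also listed with the myelin group, was at 0 in all 4 E14 KO libraries and at 74.5, 49.9, 83.5 and 35.7 CPM at P25. Mog, which peripheral glia lack, was at 0, 0, 0.117 and 0 CPM at E14 and at 6.71, 6.21, 11.4 and 4.13 CPM at P25. Gfap, an intermediate filament of astrocytes that satellite glia can also make, was at 0, 0, 0 and 0.0952 CPM at E14 and at 129, 82.5, 179.7 and 79.2 CPM at P25. Library 3 was the highest and library 4 the lowest at P25 for all 3 genes. The same held for the Schwann cell genes Prx, Pmp22, Cldn19 and Egr2, so this order was not particular to markers of central glia. Mbp and Pllp were also highest in library 3 but lowest in library 1. Of 12 tested markers of oligodendrocytes and astrocytes 10 rose and none fell. The summed level of the list was 169 to 242 CPM at E14 and 836 to 1461 CPM at P25, most of it Cnp, which Schwann cells also make (182 and 839 CPM). Olig1, Olig2, Ermn, Klk6 and Hapln2 had no counts at E14 and means of 2.81, 0.95, 1.9, 3.27 and 2.22 CPM at P25. The astrocyte water channel Aqp4 was at 12.1 and 17.5 CPM (adjusted p = 0.221), though it passed in an edgeR fit to the KO libraries alone (adjusted p = 0.00946).

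**Figure D4:**
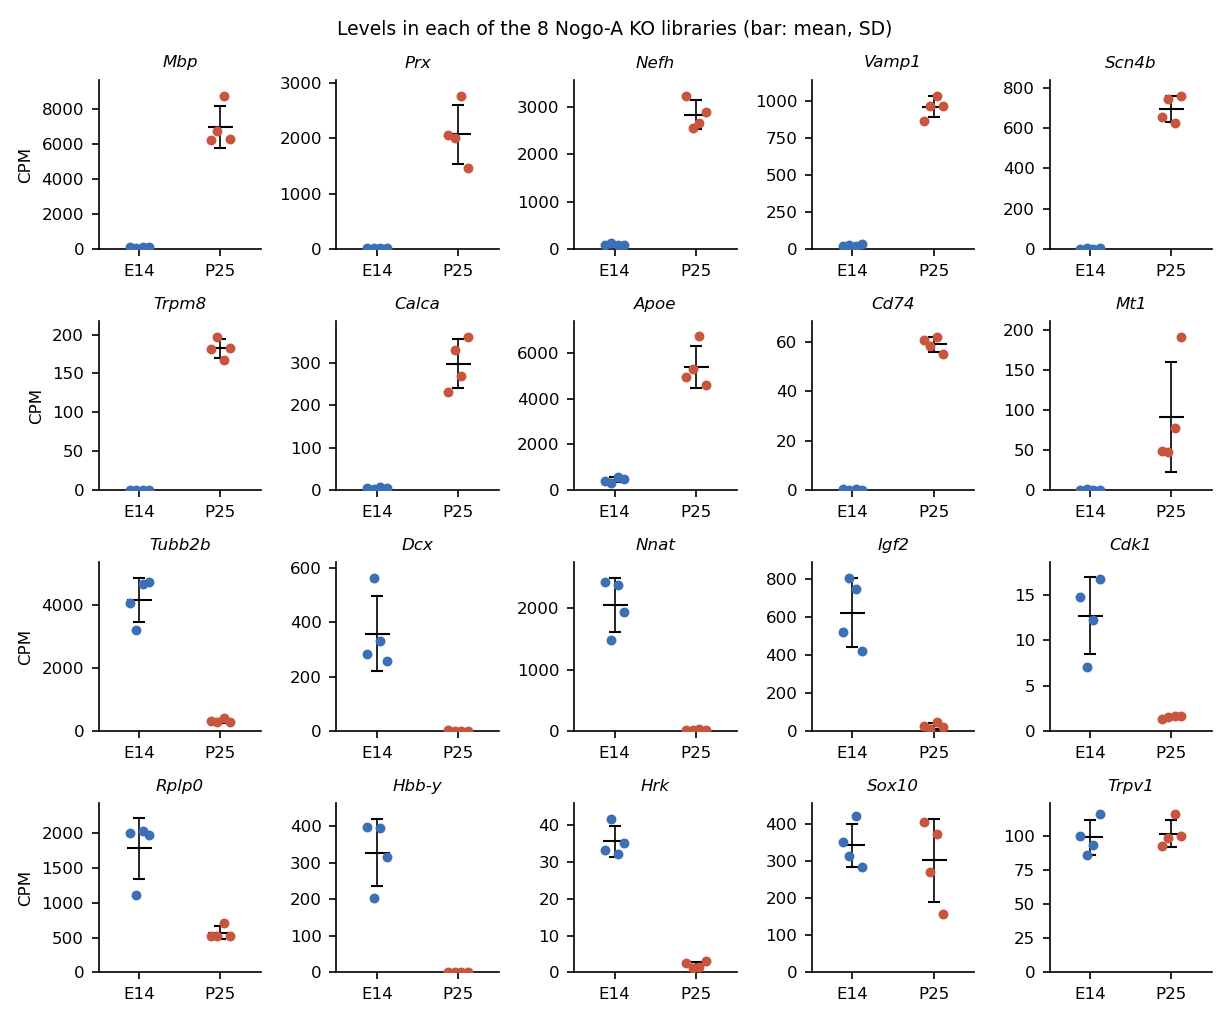
CPM of 20 genes in each of the 8 KO libraries, E14 in blue and P25 in red, one point per library in replicate order, with the mean and SD of 4 as a black bar. The stages do not overlap except for Sox10 and Trpv1, and Mbp has its highest P25 value in library 3.

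Genes of Schwann cell precursors and immature Schwann cells split. Of 22 tested members 8 rose and 10 fell, beside 30.6% and 29.2% of all genes tested. Those that fell included the precursor factor Tfap2a, from 25.5 to 3.36 CPM, the integrin Itga4, from 28.2 to 6.57 CPM, the endothelin receptor Ednrb, from 163 to 70.6 CPM, and the cadherin Cdh2, from 117 to 51.3 CPM. Those that rose included Dhh, from 26.1 to 162 CPM, and Cdh19, from 1.27 to 16.2 CPM, both of which later Schwann cells keep.

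Proteins of the node of Ranvier and its flanks rose in most cases. Of 22 tested members 17 rose and 3 fell, with a median of 1.54. Gldn, which gathers sodium channels at nodes, rose from 0.47 to 41.2 CPM. Its axonal partner Nfasc rose from 139.9 to 440.0 CPM, the paranodal Cntnap1 and Cntn1 from 64.6 to 416 CPM and from 63.8 to 335 CPM, and the nodal spectrin Sptbn4 from 35.4 to 148 CPM. The juxtaparanodal channels Kcna1 and Kcna2 rose from 35.1 to 214 CPM and from 64.3 to 421 CPM. Lgi3, a secreted protein of this region, rose from 10.5 to 369 CPM. Cntn2, the juxtaparanodal adhesion protein that growing axons also carry, fell as given above, and its partner Cntnap2 was at 157 and 166 CPM (adjusted p = 0.669).

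Satellite glial genes rose in 15 and fell in 5 of 22 tested cases. Apoe was at 408, 332, 587 and 506 CPM at E14 and at 4921, 5275, 6708 and 4605 CPM at P25, with log2 fold change 3.55 (SE 0.26, adjusted p = 4.27e-10). Kcnj10, the potassium channel by which these cells buffer neurons, rose from 10.7 to 77.2 CPM, and Glul, glutamine synthetase, from 224 to 715 CPM. The proteoglycan Bcan rose from 4.96 to 145 CPM and the matrix protein Sparcl1 from 59.5 to 480.4 CPM. The gap junction gene Gja1 fell from 48.1 to 26.3 CPM, and Ednrb from 163 to 70.6 CPM.

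Lipid synthesis did not move as a block. Of 26 tested genes of cholesterol and fatty acid synthesis 10 rose, 6 fell and 10 did not pass the test, with a median of 0.08. Without P25 KO library 4, 2 of them fell. In the main fit 30.6% of all genes tested rose and 29.2% fell. The desaturase Scd1 rose from 96.3 to 595 CPM and Elovl6, which lengthens fatty acids, from 23.6 to 81.6 CPM. Fasn, fatty acid synthase, fell from 2379.5 to 742 CPM.

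Receptors of Nogo-A changed in both directions. Rtn4r, the Nogo receptor, was at 31.2, 28.7, 27 and 28.2 CPM at E14 and at 17.5, 18.6, 16.4 and 19.6 CPM at P25 (log2 -0.68, SE 0.23, adjusted p = 0.0144). Its relatives Rtn4rl1 and Rtn4rl2 fell from 166 to 92.8 CPM and from 68.8 to 37.8 CPM, and S1pr2, a further Nogo-A receptor, from 13.4 to 7.65 CPM. Pirb, another receptor for Nogo that immune cells also make, had 2 counts in all at E14 and 102 at P25, a ratio of 40.7 in CPM (counting interval 11 to 340). The syndecans Sdc3 and Sdc4, heparan sulfate proteoglycans of the same list, rose from 383 to 599 CPM and from 9.33 to 73.2 CPM. The co-receptor Lingo1 was at 179 and 138 CPM (adjusted p = 0.0777). It was called lower in a fit to the KO libraries alone, with library totals alone and with same-numbered ganglia summed (edgeR, adjusted p 0.0173 to 0.0192). The other myelin ligands of the Nogo receptor, Mag and Omg, rose from 9.04 to 171 CPM and from 0.0469 to 16.4 CPM. Omg, like Mog, is known from oligodendrocytes, so the values of central glial markers given above stand beside it. At P25 Omg was at 17.9, 15, 12.5 and 20 CPM, lowest in library 3 and highest in library 4, whereas Mog was highest in library 3 and lowest in library 4. Which cells the Omg counts came from was not tested. Downstream, the kinases Rock2 and Limk1 rose from 5.77 to 29.972 CPM and from 183 to 413 CPM, and Rhoa fell from 354 to 253 CPM. Among other reticulons, Rtn3 rose from 523 to 931 CPM, and Rtn1 was at 628 and 521 CPM (adjusted p = 0.169). Of 28 tested members 13 rose and 6 fell, beside 30.6% and 29.2% of all genes tested.

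Proliferation genes fell almost throughout. Of 36 tested members 30 fell and 2 rose, with a median of -2.23. Cdk1, the mitotic kinase, was at 14.8, 7.05, 12.3 and 16.8 CPM at E14 and at 1.318, 1.59, 1.69 and 1.63 CPM at P25, with log2 fold change -3.03 (SE 0.30, adjusted p = 4.94e-08). E14 KO library 2 was the lowest of its stage and still stood above all P25 libraries. Ccnb1, its cyclin, fell from 6.55 to 0.647 CPM, the topoisomerase Top2a from 25.8 to 3.02 CPM, and the replication helicase subunit Mcm6 from 64.8 to 7.95 CPM. Mki67 was at 2.48 and 2.37 CPM and did not pass the test (adjusted p = 0.926). The 2 members that rose were E2f1, from 8.54 to 46 CPM, and Ccnd1, from 29.4 to 43.5 CPM. The P25 values of Ccnd1 were 50.8, 45.5, 54.9 and 22.7 CPM, with library 4 below the E14 mean. Leaving out any of 5 single libraries ended the call of Ccnd1 (adjusted p 0.0565 to 0.12).

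Start-site windows were examined for all 36 tested members of this list, most of which fell. The search was not limited to members that fell, so the shares below describe the list. Windows from 250 bases before to 50 bases after the annotated start were taken from RefSeq (GRCm38.p6), which held 28 windows for 27 of the 36 genes. CCAAT, the box bound by NF-Y, was searched on both strands, and so was TTTGAA, the core of the cell cycle homology region through which mitotic genes are repressed in resting cells. Overlapping matches on opposite strands were counted separately. CCAAT occurred in 22 of 28 windows (78.6%) against 37.4% of all 32851 windows. TTTGAA occurred in 11 (39.3%) against 17.9%, and both occurred in 11 (39.3%) against 6.95%. A match is a description of the sequence and not a binding site. The windows of 4 mitotic genes that hold both words are shown, 5′ to 3′ on the strand of the gene, with either word, on either strand, in capitals. They lie at chr9:70421505-70421804 (minus strand), chr10:69352863-69353162 (minus), chr11:99024140-99024439 (minus) and chr2:164769679-164769978 (plus). Ccnb2, a mitotic cyclin, fell from 5.3 to 0.548 CPM and Ube2c, which marks cyclins for destruction, from 7.49 to 0.91 CPM.
Ccnb2: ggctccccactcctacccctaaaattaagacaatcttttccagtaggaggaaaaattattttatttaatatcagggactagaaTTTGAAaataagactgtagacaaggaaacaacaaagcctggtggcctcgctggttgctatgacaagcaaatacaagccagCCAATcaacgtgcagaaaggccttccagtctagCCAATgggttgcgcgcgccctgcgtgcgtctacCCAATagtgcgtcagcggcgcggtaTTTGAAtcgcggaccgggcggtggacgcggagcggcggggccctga
Cdk1: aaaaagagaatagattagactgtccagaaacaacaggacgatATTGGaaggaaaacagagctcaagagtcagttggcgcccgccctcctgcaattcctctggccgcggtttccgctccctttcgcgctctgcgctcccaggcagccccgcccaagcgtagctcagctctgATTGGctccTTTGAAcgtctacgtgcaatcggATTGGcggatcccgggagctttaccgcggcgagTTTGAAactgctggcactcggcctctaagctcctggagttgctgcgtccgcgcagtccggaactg
Top2a: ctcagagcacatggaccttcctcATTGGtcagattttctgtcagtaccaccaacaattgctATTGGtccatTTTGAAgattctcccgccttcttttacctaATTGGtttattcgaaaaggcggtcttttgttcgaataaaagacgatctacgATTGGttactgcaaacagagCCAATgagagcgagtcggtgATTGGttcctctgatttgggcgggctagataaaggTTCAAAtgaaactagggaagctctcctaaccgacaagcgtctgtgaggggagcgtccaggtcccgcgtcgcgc
Ube2c: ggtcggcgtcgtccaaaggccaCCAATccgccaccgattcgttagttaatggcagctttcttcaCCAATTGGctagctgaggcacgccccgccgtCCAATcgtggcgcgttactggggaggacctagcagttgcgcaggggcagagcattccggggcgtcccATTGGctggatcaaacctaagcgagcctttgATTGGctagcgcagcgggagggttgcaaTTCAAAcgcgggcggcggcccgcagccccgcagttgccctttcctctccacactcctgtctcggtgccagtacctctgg

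Chromatin factors of dividing cells fell too. Of 21 tested members 13 fell and 3 rose. Uhrf1, which guides maintenance of DNA methylation, fell from 31.8 to 2.58 CPM, and the methyltransferase Dnmt1 from 112 to 40.7 CPM. Within Polycomb, Ezh2 fell from 11.2 to 3.2 CPM and Cbx2 from 43.5 to 7.57 CPM, while Ezh1 and Cbx7, known from resting cells, rose from 24.2 to 77.6 CPM and from 4.78 to 45.4 CPM. Suz12, the core subunit that both forms need, also rose, from 5.94 to 14.6 CPM.

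The fetal growth programme had the lowest median of the 29 functional groups, -2.37, with 14 of 20 tested members lower and 3 higher at P25. Igf2, the fetal growth factor, was at 521, 804, 746 and 419.6 CPM at E14 and at 25.9, 11.2, 48.1 and 23.5 CPM at P25 (log2 -4.52, SE 0.37, adjusted p = 2.95e-09). The imprinted Nnat was at 2429, 1491, 2375 and 1939.5 CPM at E14 and at 26.4, 28.1, 43.5 and 25.6 CPM at P25 (log2 -6.06, SE 0.30, adjusted p = 1.97e-12). Dlk1 and Cdkn1c, also imprinted, fell from 207 to 1.91 CPM and from 276 to 13.9 CPM. Hmga2 and Igf2bp1, both known targets of the let-7 microRNAs, fell from 8.87 to 0.033 CPM and from 22.6 to 0.167 CPM. Igf2bp3 fell from 26.1 to 0.103 CPM. Imprinted genes did not all fall, since Peg3 rose from 47.6 to 144 CPM.

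Every one of the 52 cytosolic ribosomal protein genes tested fell, with log2 fold changes from -2.04 (Rps7) to -1.01 (Rpl38) and a median of -1.43. This held under each other scaling and with each library left out. Rplp0, of the ribosomal stalk, was at 2002, 1116, 2028 and 1974 CPM at E14 and at 528, 518, 706 and 517 CPM at P25, with log2 fold change -1.65 (SE 0.21, adjusted p = 1.77e-06). E14 KO library 2 was the lowest at E14 for Rplp0 and stood above all P25 libraries. The summed level of the group was 17651 to 30695 CPM at E14 and 8097 to 10008 CPM at P25. These genes have many processed copies in the genome, between which estimated counts divide reads by a model.

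Nuclear genes of oxidative phosphorylation changed little. Of 43 tested members 7 rose, none fell and 36 did not pass the test, with a median of 0.20. Sdha of complex II rose from 170.4 to 316 CPM. The count rested on the libraries and the fit, with 4 members that rose without P25 KO library 4 and 12 in a fit to the KO libraries alone.

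RNA-binding proteins of neurons moved in both directions. Of 26 tested 6 rose and 11 fell, beside 30.6% and 29.2% of all genes tested. Mbnl1 and Mbnl2, splicing factors that favour adult isoforms, rose from 11.5 to 105 CPM and from 27 to 161 CPM, and Celf4 from 7.13 to 34.2 CPM. Ptbp1, which holds back neuronal exons, fell from 181 to 54.5 CPM, Msi1, a factor of progenitors, from 94.7 to 19.4 CPM, and Srrm4, the regulator of neuronal microexons, from 91.9 to 16.5 CPM. The neuronal marker Rbfox3 was at 214 and 265 CPM (adjusted p = 0.245).

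Erythroid RNA was more abundant at E14. All 10 tested erythroid genes fell, of 14 listed, and their summed level went from 999 to 1609.5 CPM at E14 to between 88 and 129 CPM at P25. Hbb-y, an embryonic beta-like globin, was at 399, 203, 395 and 317 CPM at E14 and at 0, 0.0431, 0 and 0 CPM at P25. Hba-x, the embryonic alpha-like globin, was at 41.4, 58.7, 119.9 and 69.9 CPM at E14 and had no counts at P25, at least 2270-fold lower. The adult globin Hbb-bs was at 313, 239.8, 293 and 449.6 CPM at E14 and at 43.8, 59.4, 66.4 and 58.6 CPM at P25 (log2 -2.51 (SE 0.26, adjusted p = 7.87e-08)). The adult globin copies are nearly identical, so their separate values are uncertain. GATAA, the core of GATA factor sites, was searched on both strands in the windows of 7 of the 10 genes and occurred in all 7 (100%), against 25.4% of all windows. The windows of the embryonic globins, nearly absent at P25, are shown with GATAA or its reverse complement in capitals, Hbb-y at chr7:103853158-103853457 (minus strand) and Hba-x at chr11:32276350-32276649 (plus strand).
Hbb-y: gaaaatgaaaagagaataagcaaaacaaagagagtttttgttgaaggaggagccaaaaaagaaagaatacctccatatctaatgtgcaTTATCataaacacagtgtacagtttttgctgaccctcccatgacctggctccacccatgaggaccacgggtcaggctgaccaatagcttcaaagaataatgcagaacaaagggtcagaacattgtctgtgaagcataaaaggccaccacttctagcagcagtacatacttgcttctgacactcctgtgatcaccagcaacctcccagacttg
Hba-x: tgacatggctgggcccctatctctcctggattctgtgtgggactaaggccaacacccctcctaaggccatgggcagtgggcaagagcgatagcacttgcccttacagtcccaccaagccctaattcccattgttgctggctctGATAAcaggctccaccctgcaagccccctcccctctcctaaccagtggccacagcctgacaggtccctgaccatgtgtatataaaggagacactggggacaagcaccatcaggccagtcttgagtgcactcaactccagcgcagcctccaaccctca

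Endothelial markers moved apart: of 12 tested 4 rose and 6 fell, beside 30.6% and 29.2% of all genes tested. The pan-endothelial Cdh5 was at 77, 108, 99.8 and 81.2 CPM at E14 and at 33.5, 21.8, 30.3 and 13.9 CPM at P25 (log2 -1.88, SE 0.25, adjusted p = 2.05e-06), and Pecam1 fell from 56.9 to 16.9 CPM. Cldn5, a tight junction protein of barrier vessels, was at 9.54, 5.41, 7.81 and 5.62 CPM at E14 and at 32, 27.8, 32.2 and 10.2 CPM at P25 (log2 1.85, SE 0.33, adjusted p = 8.28e-05), and Vwf rose from 6.18 to 36.8 CPM. P25 KO library 4 was the lowest of its group for both Cdh5 and Cldn5.

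Matrix genes moved in both directions. Of 38 tested matrix genes 12 rose and 14 fell, beside 30.6% and 29.2% of all genes tested. Dcn, the fibrillar proteoglycan decorin, was at 29.4, 20.3, 30.002 and 20.2 CPM at E14 and at 240.0, 271, 214 and 267 CPM at P25 (log2 3.31, SE 0.31, adjusted p = 2.39e-08). Tnxb rose from 3.61 to 67.5 CPM and Sparc from 498 to 1937 CPM. The embryonic matrix proteins Tnc and Fbn2 fell from 114 to 5.6 CPM and from 38.7 to 3.87 CPM, and the proteoglycans Ncan and Vcan, which restrain axons, from 283 to 36.9 CPM and from 21 to 3.09 CPM. Col2a1, the cartilage collagen, fell from 232 to 9.11 CPM. Of 12 markers of fibroblasts, perineurial and mural cells 9 rose and none fell.

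Immune genes rose as a group. Of 25 tested genes of complement and antigen presentation 24 rose and none fell, with a median of 3.60. Cd74, the chaperone of MHC class II, was at 0.506, 0.233, 0.466 and 0.143 CPM at E14 and at 60.7, 58.4, 62.2 and 55.1 CPM at P25 (log2 7.49, SE 0.40, adjusted p = 5.46e-12). The class II chains H2-Ab1 and H2-Aa rose from 0.11 to 21.7 CPM and from 0.126 to 11.7 CPM, and the class I chains H2-K1 and H2-D1 from 1.87 to 82.2 CPM and from 26.7 to 166 CPM. Serping1, the C1 inhibitor, rose from 21.4 to 148 CPM. Of 15 macrophage markers 14 rose and none fell, from a summed level of 56.2 to 69.9 CPM at E14 to 216 to 291 CPM at P25. Csf1r, the receptor macrophages need, rose from 15.9 to 66.7 CPM, and Cd163, a marker of tissue macrophages, had no counts at E14 and 4.97 CPM at P25.

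Interferon-stimulated genes rose in 19 of 24 tested cases, and none fell. Ifi27 rose from 5.89 to 90.3 CPM and Oasl2 from 4.58 to 38.4 CPM. Ifit1 had no counts at E14 and was at 4.49, 4.27, 3.92 and 5.12 CPM at P25.

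Markers of neighbouring tissues differed in level. Surface epithelium markers summed to 58.8 to 69.2 CPM at E14 and 232 to 299 CPM at P25, most of it Cdh1 at both stages. The rise of that sum followed Cdh1, since of 8 tested markers 3 rose and 3 fell, with a median log2 fold change of 0.29. Cartilage and bone markers summed to 204 to 293 CPM at E14, most of it Col2a1, and to 57.1 to 72.3 CPM at P25. The fall of this sum followed Col2a1, since of 9 tested markers 5 rose and 2 fell, with a median log2 fold change of 1.69. The part of these tissues in the results was not tested. The oral and skin marker Lgals7 was at 4.42, 2.75, 3.26 and 7.38 CPM at E14 and at 0, 0, 0 and 0.0397 CPM at P25. Cdh1, an epithelial cadherin that myelinating Schwann cells also make, rose from 51.9 to 250.4 CPM. Tyrp1, a melanocyte enzyme, rose from 2.81 to 32.3 CPM, and Hapln1, a cartilage link protein, from 0.216 to 16.8 CPM. Of 12 muscle markers 7 were tested, with a summed level of at most 18.3 CPM at E14 and 15 CPM at P25. The 10 pituitary markers summed to at most 3.32 CPM at E14 and 1.37 CPM at P25. General sensory neuron markers summed to 17655 to 20394 CPM at E14 and 17955 to 19374 CPM at P25, ranges that overlapped. Of 14 such markers 6 rose and 4 fell, beside 30.6% and 29.2% of all genes tested.

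Immediate early genes, which respond quickly to activity, rose in 20 of 25 tested cases, and 1 fell, but the P25 ganglia did not behave alike. Egr1 was at 43.6, 47.2, 59.5 and 27.2 CPM at E14 and at 548, 516, 431 and 13.6 CPM at P25, with log2 fold change 3.09 (SE 0.61, adjusted p = 0.000213). Fos was at 1.07, 2.52, 3.26 and 3.48 CPM at E14 and at 44.1, 56.7, 25.8 and 3.06 CPM at P25 (log2 3.64, SE 0.56, adjusted p = 1.31e-05). Ccn1, a matrix protein of the same response, was at 7.58, 9.24, 10.4 and 8.33 CPM at E14 and at 179, 288, 362 and 4.68 CPM at P25 (log2 4.55, SE 0.69, adjusted p = 1.25e-05). P25 KO library 4 fell within or below the E14 range for these 3 genes, while the other 3 libraries stood well above it. The summed level of the group ran from 533 to 1975 CPM at P25 and from 441 to 509 CPM at E14. Without P25 KO library 4, 22 members rose, 1 fell and the median was 1.88, against 1.65 with it.

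Glucocorticoid-responsive genes rose in 12 of 16 tested cases. The same library stood out, in the other direction, for the metallothionein Mt1, which was at 0.632, 1.17, 0.641 and 0.429 CPM at E14 and at 48.4, 47.8, 77.9 and 191 CPM at P25 (log2 6.97 (SE 0.47, adjusted p = 1.88e-10), and 6.35 without library 4). Klf9, a factor induced by glucocorticoid and thyroid hormone, was at 0.316, 1.54, 1.4 and 0.476 CPM at E14 and at 54.6, 57.2, 51.3 and 99.7 CPM at P25 (log2 6.11, SE 0.53, adjusted p = 6.55e-09). Hif3a, a hypoxia-related factor, was at 30.5, 47.1, 31.1 and 28.6 CPM at E14 and at 0.7, 0.474, 0.548 and 12.7 CPM at P25 (log2 -3.24, and -5.85 without library 4). Library 4 was the highest of the P25 group for all 3 genes.

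Clock genes rose in 15 of 17 tested cases, with a median of 2.61, and Cry1 fell, from 22 to 8 CPM. Nr1d1, the REV-ERB repressor of the clock, was at 6.19, 9.61, 8.62 and 7.48 CPM at E14 and at 98.2, 77.1, 109 and 59.8 CPM at P25 (log2 3.43, SE 0.24, adjusted p = 2.66e-10). Dbp, an output factor with a strong daily rhythm, rose from 5.63 to 34.2 CPM, Bhlhe41 from 2.15 to 33.7 CPM and Clock itself from 6.76 to 28.5 CPM. The labels give no hour of collection. CACGTG, the E-box that CLOCK binds, searched as a word that is its own reverse complement, occurred in 6 of 19 windows of 14 of these genes (31.6%) against 7.15% of all windows.

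Beside the KO comparison stands the same comparison in WT ganglia, which shares no library with it. In WT 4492 genes rose (29.7%) and 4509 fell (29.8%). A total of 7702 genes were called in both, 85.3% of those called in KO and 85.6% of those called in WT. Of these, 7699 changed in the same direction. The exceptions were Mdm4, Ryr1 and A930004J17Rik, which were chosen after their values were seen. Mdm4, an inhibitor of p53, had a log2 fold change of 0.55 in KO and -0.57 in WT. Ryr1, an intracellular calcium channel, had 1.04 in KO and -1.44 in WT.

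The test of the difference between these stage differences called no gene (0%), with 647 genes at an unadjusted p under 0.05 (4.28% of those tested). DESeq2 called 8 genes in the same test and had 916 at an unadjusted p under 0.05. Those 8 included Ryr1, Mdm4, Txnip, Depp1 and Zfp36. For the main groups described above the KO and WT medians lay close. They were 5.76 and 5.85 for myelin, -2.23 and -2.35 for the cell cycle, and 1.37 and 1.42 for channels. They lay farther apart for immediate early genes (1.65 and 0.77), clock genes (2.61 and 1.78), interferon-stimulated genes (2.46 and 3.36) and ribosomal proteins (-1.43 and -0.998). Unadjusted p-values under 0.05 occurred for 13 of 25 immediate early genes, 5 of 17 clock genes and 12 of 52 ribosomal protein genes. They also occurred for 7 of 16 glucocorticoid-responsive genes, 4 of 24 interferon-stimulated genes and 7 of 43 nuclear genes of oxidative phosphorylation. Of 15 GABA-A and chloride transporter genes there were 0. None passed the adjustment over all genes. Without P25 KO library 4, edgeR called 7 genes in this test: Ccn1, Egr1, Zfp36, Nr4a1, Fos, Ier2 and Junb. All had a more positive log2 fold change from E14 to P25 in KO than in WT. Library 4 held the lowest P25 KO value of each of these 7 genes, so leaving it out raised their P25 KO means. With any other single KO library left out, the test called 0 genes.

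**Figure D5:**
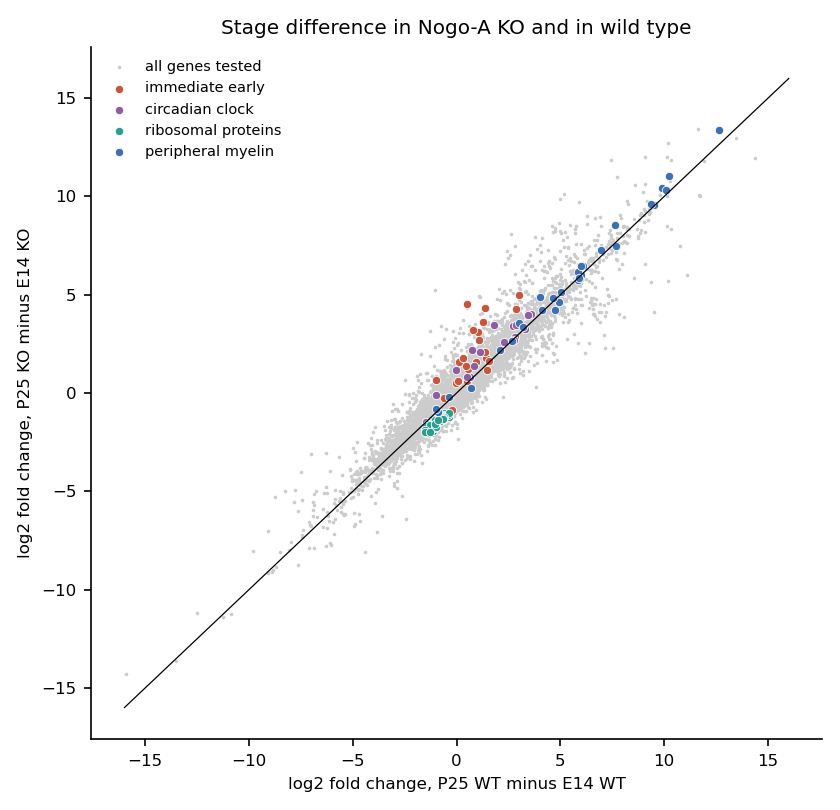
Log2 fold change from E14 to P25 of each of 15109 genes in WT (horizontal, 4 libraries per stage) and in KO (vertical, 4 per stage), with 4 gene groups coloured and the line of equality. Myelin genes follow the line, with medians of 5.85 in WT and 5.76 in KO, while immediate early genes lie above it, with medians of 0.77 and 1.65.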

How the data were processed

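Per the labels' protocols, stranded libraries were made from polyadenylated RNA of whole trigeminal ganglia. The values the authors deposited are estimated counts per gene, rounded to integers. Without role or order, GRCm39, kallisto 0.46, fastp 0.20.0 and DESeq2 1.32.0 are named in the submitters' processing notes. Which annotation and strand setting were used is not given in the sources used here. A model divides reads between similar transcripts in estimated counts.

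Counts were analysed in R 4.3.3 with edgeR 4.0.16. The steps were TMM scaling, the filterByExpr filter (15109 of 25719 genes), a joint model of the 16 libraries with 4 group means, and the quasi-likelihood test with Benjamini-Hochberg adjustment (threshold 0.05). The edgeR function glmTreat tested for more than 2-fold. CPM uses TMM-scaled totals. A fold against a group without counts is a bound with 3 counts over the group, which covers counting error only. The fit was tested on simulated data. Promoter windows came from RefSeq (GRCm38.p6), which is not the assembly of the counts.

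Members and gene lists were chosen with earlier results of these data known. Named genes were Rtn4, the 15 largest changes each way (over 2-fold, mean of at least 10 CPM, no overlap between stages, no unnamed models), in each list the 3 called members with the largest rise or fall and a mean of 1 CPM or more, with further members needed to describe a list, up to 6 members with the smallest change, and the 10 genes with most counts per stage. Not all of these are named in the text, and some are not reported here. Lists are described by counts and medians, without a set test. The alternatives were RLE scaling, DESeq2 1.42.0, 2 other filters, library totals without scaling, a replicate block, summed same-numbered ganglia, the KO libraries alone, and each KO library left out. Figures were drawn with matplotlib 3.10.9.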

Additional observations from a re-analysis of the deposited data

Results flagged for a closer look

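Of 498 sets of 4 KO libraries (249 named genes at each stage), 37 held 1 library whose gap to the nearest other, as a share of the range of the 4, passed Dixon's 95% limit. That is 7.43% of the sets. Sets with no spread, or with every library under 1 CPM, were not searched but are counted in the 498. The share among the sets searched is therefore higher. Chance alone gives such a gap in about 1 of 20 groups. Levels are in CPM, with the range of the other 3 libraries after each. E14 KO library 1 stood above the rest of its group for E2f1 (10.3 against 7.84 to 8.1). E14 KO library 2 stood above the rest of its group for Chl1 (12.6 against 6.32 to 7.34), Dnmt1 (144 against 99.1 to 106), Gap43 (575 against 434 to 456) and Hif3a (47.1 against 28.6 to 31.1). It also stood apart in that direction for Lingo1 (207 against 168 to 172), Map1a (807 against 461 to 487), Mdm4 (24.1 against 15.9 to 17.2) and Ntrk2 (127 against 95 to 100). The same held for Piezo2 (285 against 128 to 148), Slc12a2 (64.7 against 31.6 to 36.6), Slc17a6 (75 against 47.9 to 51.9) and Suz12 (11 against 3.67 to 4.72). E14 KO library 2 stood below the rest of its group for Rplp0 (1116 against 1974 to 2028). E14 KO library 3 stood above the rest of its group for Egr2 (2.1 against 0.887 to 1) and Penk (34.3 against 11.4 to 14.2). E14 KO library 3 stood below the rest of its group for Cntnap2 (148 against 159 to 161). E14 KO library 4 stood above the rest of its group for Lgi3 (13.4 against 9.43 to 9.79). P25 KO library 1 stood above the rest of its group for Hcn2 (347 against 295 to 302) and Rbfox3 (329 against 237 to 251). P25 KO library 1 stood below the rest of its group for Kcns3 (67.7 against 88.6 to 92.5). P25 KO library 3 stood above the rest of its group for Gfra3 (69 against 65.4 to 65.7), Nnat (43.5 against 25.6 to 28.1), Pecam1 (24.6 against 13.8 to 14.7) and Rplp0 (706 against 517 to 528). It also stood apart in that direction for Sdc4 (93.6 against 64.6 to 69.6), Tmem233 (398 against 321 to 332) and Tuba4a (755 against 609 to 630). P25 KO library 3 stood below the rest of its group for Bcl2 (16.6 against 33.4 to 35.9), Clock (22.8 against 29.7 to 31), Cntn1 (270 against 353 to 362) and Scn9a (106 against 155 to 157). P25 KO library 4 stood above the rest of its group for Angptl7 (24.8 against 20.1 to 20.4), Cd163 (9.76 against 2.65 to 3.84), Hif3a (12.7 against 0.474 to 0.7) and Klf9 (99.7 against 51.3 to 57.2). It also stood apart in that direction for Mrgprx1 (6.03 against 4.16 to 4.35). All of these are values of single libraries, and their cause was not tested.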

How the results depend on the processing

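The count of genes that rose ran from 4397 to 5202 and the count that fell from 4182 to 4819 over 8 alternatives. These were a stricter low-count filter and none, scaling by RLE or by library totals, DESeq2, same-numbered ganglia summed, a replicate block and a fit to the KO libraries alone. Leaving out each KO library in turn gave 4327 to 4701 that rose and 3913 to 4219 that fell, with 2152 to 2368 and 1278 to 1381 beyond 2-fold. The test for a difference from WT called 0 genes in the main fit, 8 with DESeq2, and 0 to 7 with 1 library left out, the 7 without P25 KO library 4 and 0 without any of the others. With the replicate block 4481 genes rose and 4263 fell, 2211 and 1404 of them beyond 2-fold, and the interaction called 0. Deviations of same-numbered libraries of the 2 KO stages correlated at -0.060 to 0.137, and not every library correlated best with its own number. With 4 libraries per stage these values cannot settle whether replicate numbers pair the samples.

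Of 3980 values of 249 named genes under 16 alternatives, 3957 kept their direction and their side of the threshold, and 239 genes kept both under all of them. The 6 changes of sign concerned genes that did not pass the test in the first place. With 1 library left out the log2 fold change ran from -0.150 to 0.079 for Mki67, from -0.355 to 0.059 for Sox10 and from -0.028 to 0.151 for Trpv1. The cause was not tested. Ccnd1 was the 1 named gene that lost its call, in 6 alternatives. In 11 values a call was gained, for Aqp4, Depp1, Ier2, Lingo1, Piezo2 and Scn9a. Scaling moved the median log2 fold change of all genes to between -0.03 and 0.05. Depth limits the fold of genes with few counts in 1 group. Chrna6 had 1 count in all in E14 KO and Trh had 1 in P25 KO, and such single counts set their fitted folds.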
